A study of Mus musculus with 8 samples.

Results

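The IgG and IgE constant-region genes are the 4 IgG genes IGHG1, IGHG2B, IGHG2C and IGHG3 and the IgE gene IGHE. They were taken as every segment whose name starts with IGHG or equals IGHE in the heavy-chain segment tables, which gave 5 of 184 segments and 5 of 8 heavy constant-region genes. The assembled heavy-chain contigs whose deposited constant gene was one of these numbered 53 of 7166, out of 1133 contigs with any constant gene. RNA was read from pro-B cells of 4 Setd2 knockout and 4 control samples from mice of 8 weeks, sorted from bone marrow by B220 and Cd43 on the surface and by the absence of IgM and CD25. The labels give no treatment, and the allele, the Cre driver and the strain are not given in the sources used here. Nothing in the labels ties a replicate number to an animal, so p-values cover the spread from sample to sample, of which an unknown part is technical.

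A B cell first joins VDJ segments to the IgM gene IGHM. Class switch recombination later replaces IGHM by a downstream constant gene and needs the deaminase AID, which mature B cells induce after activation. Spliced transcripts of a switched cell join VDJ to the first constant exon, called CH1. Unswitched cells can also make germline transcripts of a downstream gene, which hold constant exons and no VDJ. Reads on a constant gene alone cannot tell these kinds of RNA apart. Pro-B cells, which are still joining VDJ segments, are not known for class switching. In bulk RNA, fewer cells of a type and less RNA per cell cannot be told apart.

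The 5 genes lie on the minus strand of chromosome 12 (mm10), downstream of IGHM and IGHD and upstream of IGHA. IGHG3 was counted over chr12:113357442-113361232, IGHG1 over chr12:113326544-113330523, IGHG2B over chr12:113304314-113307933, IGHG2C over chr12:113287389-113288932 and IGHE over chr12:113269263-113273248. These intervals run over exons and introns. The IGHG2C interval of 1544 bases ends before the membrane exons that GENCODE M21 gives for that gene, while the other 4 intervals of 3620 to 3986 bases take them in.

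The first 26 bases of CH1 are shown because they decide which IgG gene a short contig can be assigned to. They were read from GENCODE M21 transcripts (GRCm38), and capitals mark positions at which the 4 IgG genes differ.
IGHG3: cTaCaacAacaGccccatcTgtctat
IGHG1: cCaAaacGacaCccccatcTgtctat
IGHG2B: cCaAaacAacaCccccatcAgtctat
IGHG2C: cCaAaacAacaGccccatcGgtctat
IGHE: cctctatcaggaaccctcagctctac
IGHG2B and IGHG2C are alike up to base 11 of CH1, and with IGHG2B as the base the changes to IGHG2C are C12G and A20G, counted from 1 at the first base. IGHG1 differs from IGHG2B by A8G and A20T.

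Heavy-chain locus reads ran from 12102 to 100600 over the knockouts and from 64488 to 89908 over the controls. Knockout 3 was the shallowest sample, with 10194 constant-region reads that made up 84.2% of its locus reads, against 39.8% to 55.4% in the other 7 samples. As markers of other B-lineage cells, IGHA held 4.02% to 34.1% of constant-region reads in knockouts and 17.1% to 33.3% in controls, and IGHD, a mark of mature naive B cells, held 0.467% to 0.759% in knockouts and 0.651% to 0.977% in controls. IGHM held 55.4% to 92.7% in knockouts and 41.4% to 48.02% in controls. The kappa constant gene IGKC had 2810 to 62691 reads in knockouts and 40603 to 56600 in controls. Of the lambda constant genes, IGLC1 had 31 to 1409 reads in knockouts and 207 to 570 in controls. IGLC2 had 146 to 521 in knockouts and 391 to 823 in controls. IGLC3 had 962, 691, 690 and 1581 reads in knockouts 1 to 4, against 707, 726, 680 and 678 in controls 1 to 4. Rearranged or germline light-chain RNA was therefore in every sample. These counts are not scaled for depth. Knockout 3 gave 5956 light-chain reads in all, the other knockouts 51809 to 144978 and the controls 84230 to 118807. None of these markers was at 0, and their part in the IgG and IgE values was not tested. Setd2 RNA was not analysed here, so the knockout itself was not checked.

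IgG reads were a smaller part of the constant-region reads in all 4 knockouts than in any control. The 4 IgG genes together held 9.52%, 14.9%, 2.66% and 10.1% of constant-region reads in knockouts 1 to 4, against 35.5%, 24.3%, 24.03% and 20.8% in controls 1 to 4. The highest knockout was below the lowest control. In reads, the IgG genes had 2683, 2754, 271 and 4330 in knockouts 1 to 4 and 17660, 8644, 6813 and 6316 in controls 1 to 4. Over constant-region reads, the groups did not overlap with knockouts lower for 4 of the 5 IgG and IgE genes, and for 28.8% of the 146 heavy-chain segments with at least 10 reads.

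**Figure D1:**
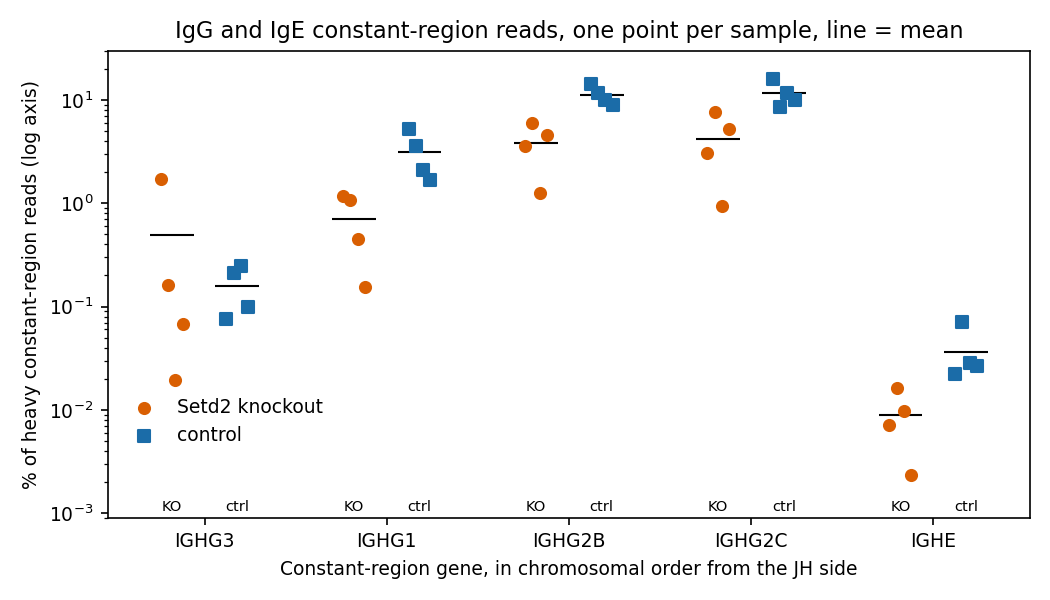
Percent of heavy constant-region reads (log axis) of each IgG and IgE gene, with 4 Setd2 knockout samples (circles) left of 4 control samples (squares) and a line at each mean. The groups are apart for IGHG1, IGHG2B, IGHG2C and IGHE, and for IGHG3 one knockout at 1.71% stands above all controls while the other 3 lie among or below them.

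IGHG1 encodes IgG1, the subclass that type 2 responses favour in mice. It held 1.17%, 1.07%, 0.451% and 0.156% of constant-region reads in knockouts 1 to 4, against 5.20%, 3.62%, 2.11% and 1.69% in controls 1 to 4. The lowest value was in knockout 4, which had 67 IGHG1 reads among the most constant-region reads of any knockout. The share averaged 0.711% ± 0.488 in knockouts and 3.15% ± 1.59 in controls (SD, n = 4 each), a ratio of 0.225 (two-sided exact permutation p = 0.0286, the smallest that 4 against 4 can give).

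IGHG2B encodes IgG2b, which fixes complement. Its share was 3.59%, 6.04%, 1.25% and 4.64% in knockouts 1 to 4, against 14.3%, 11.8%, 9.96% and 8.99% in controls 1 to 4. The groups did not overlap. The means were 3.88% ± 2.02 in knockouts and 11.3% ± 2.34 in controls, a ratio of 0.344 (exact permutation p = 0.0286).

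IGHG2C encodes IgG2c, the subclass that C57BL/6 mice carry where other strains have IgG2a and that interferon gamma favours. It held 3.05%, 7.64%, 0.942% and 5.21% in knockouts 1 to 4, against 15.9%, 8.62%, 11.7% and 10.04% in controls 1 to 4. Knockout 2 and control 2 were the nearest samples of the groups. The means were 4.21% ± 2.87 in knockouts and 11.6% ± 3.15 in controls, a ratio of 0.364 (exact permutation p = 0.0286).

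IGHE encodes IgE, the class that arms mast cells, and was close to the detection limit in every sample. It had 2, 3, 1 and 1 reads in knockouts 1 to 4, against 11, 25, 8 and 8 in controls 1 to 4. Every knockout was below every control in reads and in share. The share averaged 0.00887% ± 0.00581 in knockouts and 0.0367% ± 0.0225 in controls, a ratio of 0.242 (exact permutation p = 0.0286). Counting error alone was wide at this depth: the 95% Wilson interval was 0.00553% to 0.0478% in knockout 2 and 0.0123% to 0.0396% in control 1, so these intervals overlap.

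IGHG3 encodes IgG3, a subclass of responses to polysaccharides, and did not follow the other 3 IgG genes. It had 481, 30, 2 and 29 reads in knockouts 1 to 4, against 38, 76, 70 and 30 in controls 1 to 4. Its share was 1.71%, 0.162%, 0.0196% and 0.0674% in the knockouts, against 0.0763%, 0.213%, 0.247% and 0.0989% in the controls. The groups overlapped, and knockout 1 alone carried the higher knockout mean of 0.489% ± 0.814, against 0.159% ± 0.0840 in controls (exact permutation p = 0.886). Without knockout 1 the difference of 0.330 percentage points turned to -0.0757.

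With the 15 readouts computed on these samples, the Benjamini-Hochberg adjusted p of each exact permutation p of 0.0286 was 0.0714, so no readout passed 0.05 after adjustment. The readouts share reads and samples and are not independent. Leaving out control 1 cut the IGHG1 difference from -2.44 to -1.76 percentage points and leaving out control 2 cut that of IGHE from -0.0278 to -0.0167.

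The IGHM share was larger in every knockout than in any control, and shares sum to a fixed total, so the genes were also set against constant-region reads other than IGHM. The knockout minus control difference was then -2.62 percentage points for IGHG1, -7.51 for IGHG2B, -8.40 for IGHG2C and -0.0161 for IGHE, with exact permutation p of 0.200, 0.0571, 0.0571 and 0.543. None of these 4 passed, while the 4 IgG genes together differed by -17.3 percentage points, with no overlap between the groups. That denominator still held IGHD. With IGHD left out as well, which leaves the switched reads, the groups crossed, as given below. Set against IGHA, the other abundant switched class, IgG reads were 0.428, 0.570, 0.661 and 0.295 times the IGHA reads in knockouts 1 to 4, against 2.08, 0.729, 0.892 and 0.650 times in controls 1 to 4. Knockout 3 and control 4 crossed there, at 0.661 and 0.650. IgG made up 22.8% to 39.7% of switched reads in knockouts and 39.4% to 67.5% in controls, with the same crossing. Control 1 was the one sample with more IgG than IgA reads.

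The share of IgG reads that each subclass made up overlapped between the groups, with a wider range in knockouts for IGHG1 and, through knockout 1, for IGHG3. IGHG2B made up 42.8% ± 4.41 of IgG reads in knockouts and 43.4% ± 3.70 in controls, and IGHG2C 42.6% ± 10.3 in knockouts and 44.3% ± 6.13 in controls, with exact permutation p of 0.886 and 0.857. IGHG1 made up 12.3%, 7.15%, 17.0% and 1.55% in knockouts 1 to 4, against 14.6%, 14.9%, 8.78% and 8.11% in controls 1 to 4. Its lowest and its highest share were both in knockouts, and the exact permutation p was 0.600. IGHG3 made up 17.9% of IgG reads in knockout 1 and 0.670% to 1.09% in the other 3 knockouts, against 0.215% to 1.03% in controls. These p-values do not show that the make-up was equal, since single samples moved the difference of IGHG2B between -1.99 and 1.13 percentage points and that of IGHG2C between -4.74 and 1.80.

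**Figure D2:**
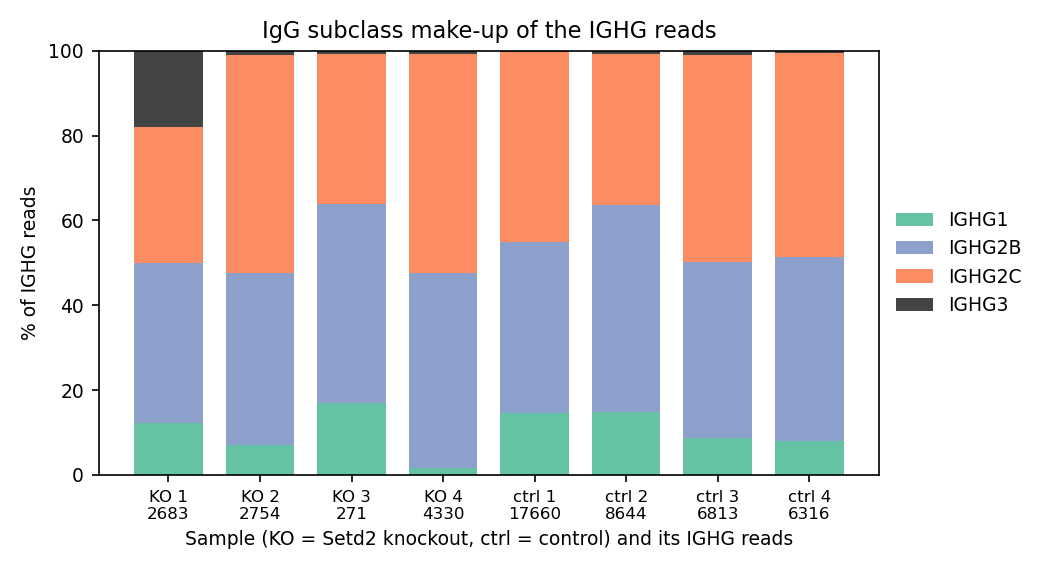
Percent of IGHG reads from each of the 4 IgG genes (stacked bars), with 4 Setd2 knockout samples left of 4 control samples and the number of IGHG reads under each bar. IGHG3 (dark) is 17.9% of the bar of knockout 1 and at most 1.09% in the other 7, and IGHG1 is 1.55% in knockout 4.

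Levels of the 5 genes were compared with each other as reads per kilobase of annotated exon inside the counted interval. IGHG2C was divided by 1007 exon bases, which leave out its membrane exons, and IGHG2B by 1329, which take them in. Their order therefore depends on this divisor: as shares of constant-region reads they averaged 11.6% and 11.3% in controls. In 5 of 8 samples the order from high to low was IGHG2C, IGHG2B, IGHG1, IGHG3 and IGHE. IGHG2B was above IGHG2C in knockout 3, at 95.6 and 95.3 reads per kilobase, and in control 2, at 3166 and 3049. By undivided reads IGHG2B was above IGHG2C in knockout 1 too, at 1011 and 861, so the order turned with the divisor there. IGHG3 was above IGHG1 only in knockout 1, at 372 and 256 reads per kilobase. Per kilobase and 1000 constant-region reads, IGHG2C averaged 41.8 ± 28.5 in knockouts and 114.9 ± 31.3 in controls, and IGHG2B 29.2 ± 15.2 in knockouts and 84.8 ± 17.6 in controls. The spread of these neighbours overlapped in both groups. IGHG1 followed with 5.52 ± 3.79 in knockouts and 24.5 ± 12.4 in controls, below IGHG2B in every sample. For comparison, IGHM stood at 423.0 ± 105 in knockouts and 282 ± 18.04 in controls.

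Set against all heavy-chain reads, most segments were lower in the knockouts, and IGHG1, IGHG2B, IGHG2C and IGHE lay near that common shift while IGHG3 lay on the other side of 0. IgG reads per 1000 locus reads were 49.1, 66.6, 22.4 and 43.04 in knockouts 1 to 4, against 196, 96.7, 106 and 82.9 in controls 1 to 4, with no overlap. Counts of the 146 segments were fitted with edgeR's quasi-likelihood test, with the locus reads as library size. It called 26 segments at an adjusted p under 0.05, or 17.8%, all lower in knockouts, and none of the 5 IgG and IgE genes was among them. DESeq2, which scales by its own size factors, called 10 segments, of which 6 were higher and 4 lower. IGHG1, IGHG2B, IGHG2C and IGHE were not among these, and IGHG3 got no adjusted p from DESeq2. Groups did not overlap, with knockouts lower, for 30.8% of segments, which included IGHG1, IGHG2B, IGHG2C and IGHE, or 4 of 5 members. At an unadjusted p under 0.05, 34.9% of segments were lower, among them IGHG1, IGHG2B and IGHG2C, and 0.685% were higher, which did not include IGHG3. The log2 fold change was below 0 for 77.4% of segments and for 4 of the 5 members.

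The median log2 fold change (knockout over control) of all 146 segments was -1.17. IGHG1 had a log2 fold change of -1.96 (SE 0.79, adjusted p = 0.0959 by edgeR), IGHG2B of -1.44 (SE 0.57, adjusted p = 0.0918 by edgeR) and IGHG2C of -1.42 (SE 0.62, adjusted p = 0.131 by edgeR). IGHE had -1.85 (SE 0.88, adjusted p = 0.147 by edgeR) and IGHG3 had 1.87 (SE 1.10, adjusted p = 0.241 by edgeR). The IGHG3 value was -0.76 without knockout 1. Relative to the median segment, IGHG2B, IGHG2C and IGHE were lower by less than 1 SE, and IGHG1 by just under 1 SE. TMM scaling, which takes the middle of the segments as unchanged, put the median at 0.04 and IGHG1, IGHG2B, IGHG2C and IGHE at -0.86, -0.23, -0.26 and -0.80, with adjusted p of 0.453 to 0.818 by edgeR. DESeq2 put the median at 0.16 and the same 4 genes at -0.70, -0.12, -0.17 and -0.73. All 4 kept a negative sign under each scaling, and IGHG3 a positive one.

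**Figure D3:**
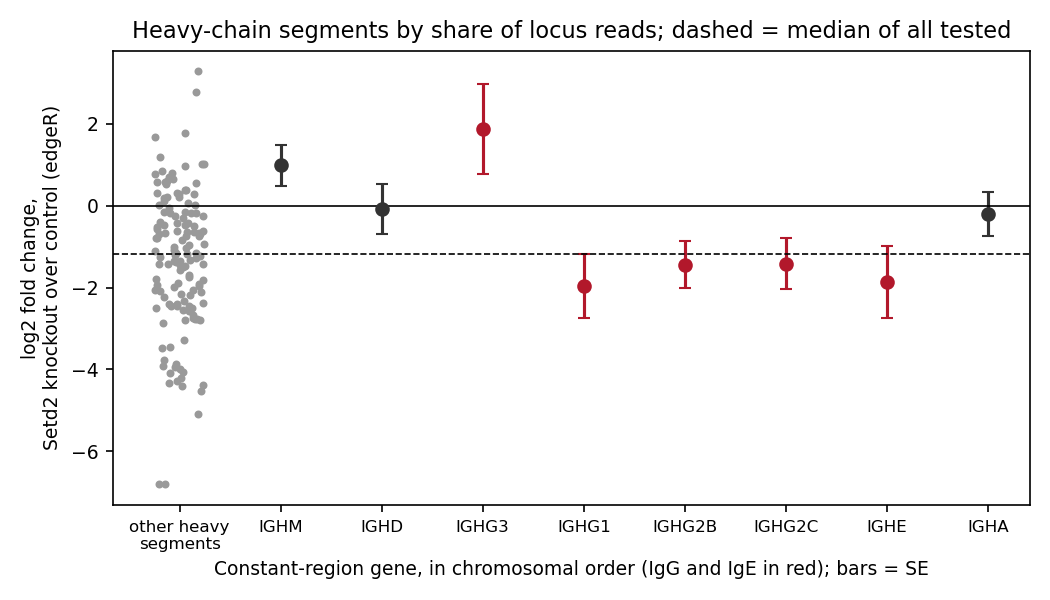
Log2 fold change, Setd2 knockout over control, of heavy-chain segments by edgeR with locus reads as library size. Grey points are the segments that are no constant-region gene, circles with SE bars are the 8 constant-region genes (IgG and IgE in red), and the dashed line is the median of -1.17. IGHG1, IGHG2B, IGHG2C and IGHE lie just below that line, IGHM at 0.99 and IGHA at -0.20 lie above it.

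Of the other constant-region genes, none passed edgeR's test: IGHM had a log2 fold change of 0.99 (SE 0.49, adjusted p = 0.164 by edgeR), IGHD of -0.08 (SE 0.61) and IGHA of -0.20 (SE 0.53). These values moved with the scaling. IGHM was at 2.66 and called by DESeq2 (adjusted p = 0.00508) and at 2.52 and not called with TMM scaling (adjusted p = 0.152 by edgeR). IGHD was at 1.46 and 1.34 and IGHA at 1.22 and 1.11 with DESeq2 and TMM scaling, so the sign of both turned, and neither was called. The segments whose levels over the 8 samples lay nearest those of the summed IgG reads were the V segments IGHV14-2, IGHV1-34, IGHV1-21-1, IGHV1-26 and IGHV1-33. Their mean absolute difference in log2 share of locus reads, after each segment's own mean was removed, was 0.457 to 0.494, against a median of 1.05 over the 141 segments compared. IGHA was at 0.537 and IGHM at 1.13.

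The deposited contigs list a constant gene beside some assembled VDJ joins. The deposited assignment gave 3, 0, 0 and 1 IgG contigs in knockouts 1 to 4, against 43, 4, 2 and 0 in controls 1 to 4, and no IGHE or IGHG3 contig in any sample. The group means were 1 ± 1.41 in knockouts and 12.3 ± 20.6 in controls (exact permutation p = 0.286). Leaving out control 1, the controls averaged 2 contigs. As a share of contigs with a constant gene, IgG held 5.17%, 0%, 0% and 1.04% in knockouts 1 to 4, against 23.2%, 1.26%, 0.781% and 0% in controls 1 to 4 (exact permutation p = 0.629). Of the 1133 contigs with a constant gene in all samples, 1075 listed IGHA and 5 IGHM. In reads, IGHM held at least 41.4% of constant-region reads in every sample. The contig share thus sets IgG mainly against IgA and is not comparable with the read share. Knockout 3 had 4 contigs with a constant gene. Both the number and the share rested on control 1, and the share was higher in knockouts by 0.874 percentage points without it. The IgG contigs held 14 contig reads in knockouts and 174 in controls, while the IgG segments held 10038 reads in knockouts and 39433 in controls.

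The 43 IgG contigs of control 1 had 43 different CDR3 sequences but few different constant-region ends. Of its 31 IGHG2B contigs, 28 carried the same 26 bases past the JH segment, and these bases differ from the GENCODE start of IGHG2B by C13T. Of its 12 contigs listed as IGHG2C or IGHG2A, 10 carried the same 30 bases, which differ from the GENCODE start of IGHG2C by C14A and T22A. The runs are shown for comparison with the CH1 starts above, with bases that differ from the GENCODE start in capitals.
control 1, IGHG2B, 28 contigs: ccaaaacaacacTcccatcagtctat
control 1, IGHG2C or IGHG2A, 10 contigs: ccaaaacaacagcAccatcggActatccac
control 2, IGHG2B, 2 contigs: ccaaaaAaacacccccatcagt
control 3, IGHG2B, 1 contig: ccaaaacaacaccccA
knockout 1, IGHG2B, 1 contig: ccaaaacaacacccc
knockout 1, IGHG1, 1 contig: ccaaaacgacaccccca
knockout 4, IGHG2C or IGHG2A, 1 contig: ccaaaacaacagccccG
C13T was found in control 1 alone, in 29 of its 31 IGHG2B contigs, and the IGHG2B contigs of knockout 1, control 2 and control 3 had the GENCODE base there. Over all IgG contigs of control 1 there were 7 distinct runs past JH, against 3 runs for the 4 contigs of control 2 and 3 runs for the 3 contigs of knockout 1. How the assembler joined reads into contigs that share a JH end was not examined, so neither the number of contigs nor the pairing of a CDR3 with its constant gene can be taken as shown for separate switched cells.

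The JH segment went with the constant gene in control 1. IGHJ4 was listed by 30 of its 31 IGHG2B contigs and IGHJ3 by 10 of its 12 IGHG2C or IGHG2A contigs, while IGHJ4 and IGHJ3 made up 35.1% and 17.9% of the 413 contigs of control 1 that reached at least 8 bases past a listed JH. Of the IGHG2B contigs, 24 were alike over the whole run after the CDR3, JH end included, and all listed IGHJ4. IGHA contigs showed shared runs too, again with the JH end included. In control 1, 49 of 137 that reached 8 bases past JH carried one run, with IGHJ4. In knockout 4, 28 of 92 carried one run, with IGHJ2. Because these runs hold the JH end, a single listed JH per run follows largely from how they were grouped.

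Because the assignment needs enough bases past JH, contigs were also sorted by the first 8 bases of CH1, a choice made after seeing the data. The match had to be exact, so deposited IgG contigs with C7A in control 2 or C1A in control 1 were not counted. Within these bases IGHG1 differs from IGHG2B and IGHG2C only at base 8. IgG starts were then found in 5, 1, 0 and 7 contigs of knockouts 1 to 4, against 57, 16, 15 and 10 contigs of controls 1 to 4. Of these 111 contigs, 61 had no deposited constant gene. The groups did not overlap in number (exact permutation p = 0.0286, and 0.0571 without control 1, the smallest possible there). The difference of the means was -21.3 contigs, and -10.4 without control 1. The knockouts had 141 to 419 contigs in all and the controls 1244 to 1612, so the share was also taken. Of 1484 contigs with any CH1 start, 1350 had that of IGHA and 22 that of IGHM, and knockout 3 had 16 in all. IgG starts made up 5.88%, 1%, 0% and 7.22% of contigs with any CH1 start in knockouts 1 to 4, against 18.2%, 4.94%, 4.79% and 4.24% in controls 1 to 4 (exact permutation p = 0.314). The difference in this share was -4.52 percentage points, and -1.13 without control 1. Knockouts 1 and 4 were above 3 of 4 controls in that share. By subclass, 3 knockout and 11 control contigs had the IGHG1 start, and 1 contig, in knockout 4, had the IGHG3 start. Knockout 1, with 481 IGHG3 reads, had 0 contigs with the IGHG3 start among 85 with a CH1 start. No contig had the IGHE start.

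**Figure D4:**
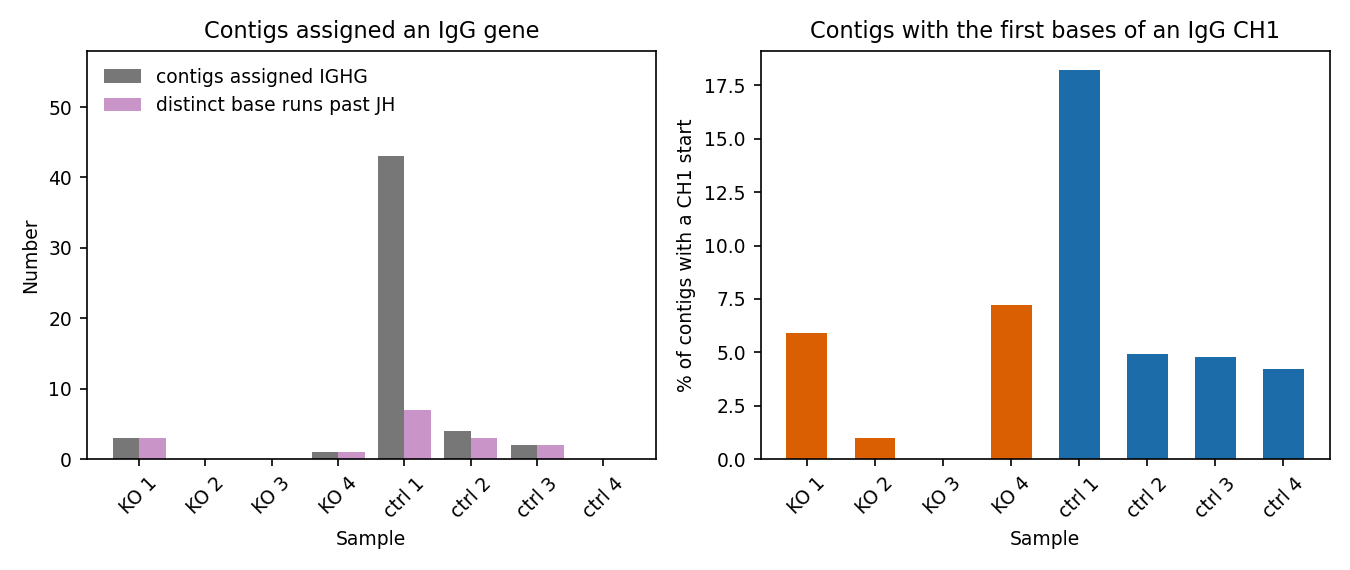
Left, number of contigs with a deposited IgG constant gene (grey) and of distinct base runs past JH among them (pink), per sample, with Setd2 knockouts (KO) left of controls (ctrl). Right, percent of contigs with a CH1 start whose first 8 bases are those of an IgG gene, with knockouts in orange and controls in blue. Control 1 stands out with 43 contigs but 7 runs, and knockouts 1 and 4 are above controls 2 to 4 on the right.

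The CDR3 of the IgG contig with most reads in each sample is given because the deposited files list these joins with an IgG constant gene. Capitals mark the 3′ bases that match the listed JH segment without a break.
knockout 1, IGHG1, IGHJ3, 4 reads: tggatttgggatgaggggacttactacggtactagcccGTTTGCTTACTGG
knockout 4, IGHG2C or IGHG2A, IGHJ2, 6 reads: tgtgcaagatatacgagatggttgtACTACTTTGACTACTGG
control 1, IGHG2C or IGHG2A, IGHJ3, 8 reads: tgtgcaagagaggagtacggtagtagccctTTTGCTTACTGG
control 2, IGHG2B, IGHJ2, 15 reads: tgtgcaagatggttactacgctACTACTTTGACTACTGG
control 3, IGHG2B, IGHJ3, 2 reads: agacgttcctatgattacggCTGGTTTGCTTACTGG
Knockouts 2 and 3 and control 4 had no such contig. The knockout 4 contig listed IGHV7-3 alone, and the control 2 contig listed several genes of the IGHV9 family. Among all 53 contigs IGHV7-3 and IGHV9-4 were each listed alone once, so no V gene was listed alone by 2 contigs. Among the 49 control contigs 13 listed genes of IGHV1 only, 3 of IGHV9, 3 of IGHV2 and 1 of IGHV6, and 25 listed no V gene. The 4 knockout contigs comprised 1 with IGHV7, 1 with genes of several families and 2 with none.

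Some IgG CDR3 sequences had a near copy in the same sample. Of the 53 contigs, 12 had a CDR3 1 base away in another contig of the sample. The same count was not made for other contigs, so there is no rate to set it against. For 2 of the 12 the near copy was assigned to IGHA, and the near copies of the others listed IGHG2B or no constant gene. Both IGHA pairs are shown, with the changed base of the IGHA contig in capitals.
knockout 1, IGHG1, 4 reads: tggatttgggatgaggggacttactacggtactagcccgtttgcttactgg
knockout 1, IGHA, 4 reads: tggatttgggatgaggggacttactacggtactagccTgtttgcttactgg
control 1, IGHG2C or IGHG2A, 7 reads: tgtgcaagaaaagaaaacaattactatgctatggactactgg
control 1, IGHA, 22 reads: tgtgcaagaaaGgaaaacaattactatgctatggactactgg
The changes are C38T in the knockout 1 pair and A12G in the control 1 pair, counted from 1 at the first base of the CDR3 as printed. Whether each pair is related joins or a read error was not determined. Only 1 IgG CDR3, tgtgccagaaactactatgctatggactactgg of control 1 with IGHJ4 and IGHG2B, was also found with the same bases in another sample. Complete CDR3 sequences, those starting with the codon tgt, had a median of 13.5 codons for 2 IgG contigs of the knockouts and 14 codons for 29 of the controls, against 13 codons over all contigs of either group. Of these 29, 26 came from control 1. IGHA contigs had a median of 13 codons in knockouts (133 sequences) and, like IgG, 14 codons in controls (540 sequences).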

How the data were processed

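Poly-A RNA of sorted pro-B cells was read as single-end reads of 75 bases, per the labels' protocols. The submitters' processing notes name STAR 2.5.1 as the aligner and mm10 as the genome, and immunoglobulin contigs came from the TRUST algorithm, per the series design text, with a version not given in the sources used here. The read count per segment and per contig is a whole number with no normalization, as deposited by the authors. How reads in introns or on near-identical paralogs were handled is not stated by any label or header, so reads of IGHG2B and IGHG2C, which are alike at the start of CH1, may be divided between them uncertainly. The depth of the whole library is unknown.

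Shares of constant-region reads were computed per sample and tested over all 70 arrangements of the samples (exact permutation, two-sided). Benjamini-Hochberg adjustment ran over 15 readouts, and 0.5 was added to counts in log2 ratios. The segment table was fitted with edgeR 4.0.16 in R 4.3.3 (quasi-likelihood, at least 10 reads per segment, locus reads as library size, no further scaling), with DESeq2 1.42.0 as an alternative. On simulated counts of 146 segments, with knockouts against controls, the share of changed segments that edgeR called was 4.67% at 4-fold and 84.0% at 16-fold. The simulation gave all segments the same dispersion and changed a few of them, up or down at random. In the data 77.4% of segments had a log2 fold change below 0, so these shares do not give the power for the real segments. Wilson intervals at 95% cover counting error only, and reads carry no molecular identifiers. The remaining steps ran in Python 3.11.15 (scipy 1.17.1, numpy 2.4.6, pandas 2.3.3, matplotlib 3.10.9).

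The genes named were the 5 members, with IGHM, IGHD and IGHA as context, the 5 segments nearest the IgG profile, and V genes listed alone by 2 or more contigs. Printed CDR3 sequences were those of the IgG contig of most reads per sample and those found in more than 1 sample, and the pairs 1 base apart were added after seeing the data. Members, lists and readouts were chosen with earlier results of these data known. Light-chain contigs were not used. Same-numbered samples deviated together little (correlations of -0.05 to 0.10 over segments), so replicate numbers were not taken as pairs. The control that correlated best was the same-numbered one for knockouts 1, 2 and 4, and control 1 for knockout 3. A pairing was therefore not excluded.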

Additional observations from a re-analysis of the deposited data

Results flagged for a closer look

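In 5 of 30 groups of 4 samples, 1 sample stood apart from the other 3 by Dixon's 95% criterion (the gap to the nearest sample against the range). Chance gives about 1 in 20 for independent groups. The 30 groups reuse the same 8 samples and share reads or contigs, so the 5 cannot be set against that rate. Knockout 1 stood apart for IGHG3, at 1.71% of constant-region reads and 17.9% of IgG reads. Control 2 stood apart for IGHE, at 0.0702% of constant-region reads from 25 reads. Control 1 stood apart in contigs, with 43 IgG contigs and 23.2% of contigs with a constant gene.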

How the results depend on the processing

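The lower shares of IGHG1, IGHG2B, IGHG2C and IGHE and of all IgG in the knockouts kept their direction in every alternative run. Leaving out 1 sample cannot give an exact permutation p below 0.0571, and pairing by replicate number none below 0.125, so a lost call there says nothing of stability. With the replicate block the differences were -16.9 percentage points for all IgG, -2.44 for IGHG1, -7.39 for IGHG2B, -7.36 for IGHG2C and -0.0278 for IGHE, and -1.43 log2 for IgG per 1000 locus reads, each with an exact sign-flip p of 0.125. Without IGHM in the denominator IGHG1, IGHG2B, IGHG2C and IGHE gave -2.62, -7.51, -8.40 and -0.0161 and did not pass, while all IgG gave -17.3 with no overlap of the groups. Without IGHM and IGHD, as a share of switched reads, all IgG gave -16.8 and the groups overlapped (exact permutation p = 0.0571).

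With 1 sample left out, differences ran from -18.7 to -13.8 percentage points for all IgG, -2.93 to -1.76 for IGHG1, -8.15 to -6.38 for IGHG2B, -8.50 to -5.91 for IGHG2C, -0.0327 to -0.0167 for IGHE and -0.0757 to 0.486 for IGHG3. As shares of IgG reads they ran from -4.61 to 0.528 for IGHG1, -1.99 to 1.13 for IGHG2B, -4.74 to 1.80 for IGHG2C and 0.183 to 5.94 for IGHG3. IGHG1 turned (0.528) without knockout 4, IGHG2B without knockout 1 (1.07), knockout 2 (0.122) or control 2 (1.13), and IGHG2C without knockout 1 (1.80) or knockout 3 (0.693). The log2 ratio of IgG to IgA ran from -1.24 to -0.68, the IgG share of switched reads from -20.03 to -10.7 and log2 IgG per 1000 locus reads from -1.65 to -1.13. IgG contigs ran from -15.3 to -1 and their share from -6.87 to 0.874, the last without control 1. That share also turned on a log2 ratio scale, at 0.59, and IgG contigs by CH1 start differed by -21.3, or -10.4 without control 1. The cause of these turns was not tested.

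Of 146 segments edgeR called 26, and 0 with TMM scaling (17 lower and 13 higher before adjustment). DESeq2 called 10 of the 146 (6 higher and 4 lower). With constant-region reads as library size edgeR called 21 of 146, and with no filter 9 of 184 segments. With 1 sample left out edgeR called 0 to 40 of the 140 to 146 segments tested. It called 0 without knockout 3, knockout 4, control 2 or control 3 (37 to 46 lower and at most 3 higher before adjustment), 2 without control 4, 7 without control 1 and 40 without knockout 2. With the replicate block it called 30. In none of these fits was an IgG or IgE gene called, and DESeq2 gave IGHG3 no adjusted p. The IGHG3 log2 fold change ran from -0.76 without knockout 1 to 2.25 without knockout 3, and was 0.08 with the replicate block, 2.85 with TMM scaling and 3.07 with DESeq2.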
